A study of Mus musculus with 26 samples.

Results

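Cholesterol is made in the liver from acetyl-CoA by a long chain of enzymes, and it is taken up from the blood through lipoprotein receptors. Transcription of most of these enzymes is driven by sterol regulatory element-binding proteins (SREBPs), membrane-bound factors that are released for the nucleus when the endoplasmic reticulum runs low in sterol. The genes described here are 26 members of this system: 8 enzymes of the mevalonate route to squalene, 10 enzymes of the steps after squalene, and 8 genes of its control and of sterol uptake and transfer. They were chosen by symbol from a list that does not cover every enzyme of the pathway. All 26 were found among the 54532 genes of the count table, and all 26 passed the filter on low counts that left 14415 genes to test.

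The samples were livers of 26 C57BL/6 mice, a common inbred laboratory strain, that had received benoxacor by oral gavage on 3 consecutive days and were dissected 24 hours after the last gavage. Benoxacor is a safener, an additive that protects crops from a herbicide applied with it. Doses of 0, 0.5, 5 and 50 mg/kg were given to 5, 5, 8 and 8 mice, all otherwise alike per the labels, which give neither the sex of the mice nor the vehicle and give 4-8 weeks for acclimatisation. The mice were numbered in 2 runs, 619 to 632 and 601 to 616. The run from 619 (the 619 run) held 1, 2, 4 and 4 mice of these doses in turn, and the run from 601 (the 601 run) held 4, 3, 4 and 4. No label explains the gap between the numbers, and within each run they rose with dose, so dose and number order cannot be told apart. Mice are called replicates 1 to 5 or 1 to 8 of their dose in number order.

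Library totals lay between 5433074 and 9088626 reads (median 7105531), and the members together took 0.169% to 0.311% of a library's reads. The hepatocyte marker genes were abundant in every library (summed level 42600 to 123000 CPM, the reads of a gene scaled to library size), and cholangiocyte markers summed to 6.44 to 16.2 CPM. Replicate 8 of the 5 mg/kg group stood apart: its 8 markers of steroid-producing cells, all at their highest there, summed to 3870 CPM, against 2.66 to 18.9 CPM in the other 25 livers, where the defining marker Cyp11a1 had 0 reads. Replicates 1 and 2 of the 0.5 mg/kg group had acute-phase sums of 4080 and 6350 CPM, against 24.7 to 969 CPM elsewhere. In bulk liver, fewer cells of a type and less RNA per cell cannot be told apart.

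Levels differed widely between the members. Per kilobase of exon, Sc5d, a desaturase acting near the end of the pathway, had the highest median over the 26 livers (78.6 CPM per kb). It was followed by Insig1, which holds the SREBP escort in the endoplasmic reticulum (72.3 CPM per kb), and by Ebp, the sterol isomerase (44.2 CPM per kb). Cyp51, the lanosterol demethylase, had a median of 34.9 CPM per kb, and Tmem97, a sterol-binding protein of the endoplasmic reticulum, one of 34.1 CPM per kb. Neighbours in this order had overlapping ranges over the livers.

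**Figure D1:**
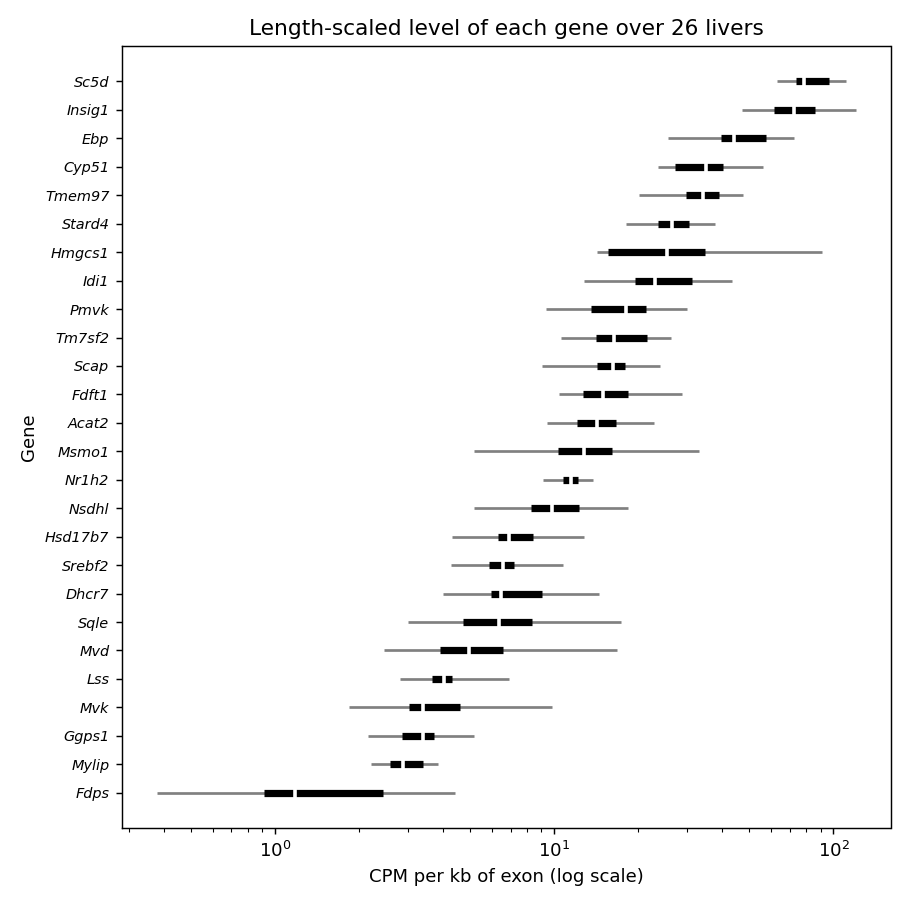
Level of each of the 26 genes in CPM per kilobase of exon (logarithmic axis) over the 26 livers, ordered by median level. Thin lines mark the range, thick lines the middle quartiles and a white gap the median. Sc5d is highest, with a median of 78.6 CPM per kb, and Fdps is lowest, with 1.18 CPM per kb.

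Within the mevalonate route, Hmgcs1, which makes HMG-CoA, had the highest median level (25.3 CPM per kb), followed by the isomerase Idi1 (22.9 CPM per kb) and by Pmvk, which phosphorylates phosphomevalonate (18.1 CPM per kb). Fdft1, which joins farnesyl units into squalene, and the thiolase Acat2 stood at 15 and 14.3 CPM per kb. The decarboxylase Mvd, the kinase Mvk and the farnesyl diphosphate synthase Fdps were lowest of these, at 4.95, 3.39 and 1.18 CPM per kb.

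Of the later enzymes, the sterol reductase Tm7sf2 had 16.4 CPM per kb and Msmo1, the sterol C4 methyl oxidase, 12.8 CPM per kb. Nsdhl and Hsd17b7, which act with Msmo1 in removing methyl groups, had 9.84 and 6.92 CPM per kb. Dhcr7, which makes cholesterol from its direct precursor, had 6.46 CPM per kb, the squalene epoxidase Sqle 6.37 CPM per kb and the lanosterol synthase Lss 4.03 CPM per kb.

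Among the control and uptake genes, Stard4, which carries sterol between membranes, had a median of 26.5 CPM per kb. Scap, the escort of SREBPs, had 16.3 CPM per kb, the oxysterol-sensing nuclear receptor Nr1h2 11.5 CPM per kb, and Srebf2, the SREBP of cholesterol synthesis, 6.55 CPM per kb. Ggps1, which makes geranylgeranyl diphosphate, had 3.39 CPM per kb, and Mylip, the ubiquitin ligase that marks lipoprotein receptors for breakdown, had 2.87 CPM per kb.

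Several of these levels depend on how reads were shared between genes. Neither the aligner nor the strand setting of the counting is given in the sources used here. Fdps had 1324 reads over all livers, against 1657 for Gm3571, a copy of 98.87% identity over 1062 bases, and 241 for Gm5873, of 96.717% identity over 1066 bases. Fdps also shares exon bases with Gm43738 on the same strand (100% identity over 929 bases), and Gm43738 had 0 reads. How reads in these shared bases were counted is not given. Acat2 had 7294 reads, against 39499 for Acat3, of 97.698% identity over 1477 bases, and 53723 for Tcp1, of 98.652% identity over 445 bases. Hmgcs1 shares bases with Gm48342 (6382 reads), Fdft1 with Ctsb (61236 reads), Cyp51 with Akap9 (12747 reads), Ggps1 with Arid4b (7829 reads) and Scap with 5830462I19Rik (4657 reads). Levels of these members are uncertain to that extent.

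Single livers differed widely. Hmgcs1 averaged 123, 128, 138 and 134 CPM from 0 to 50 mg/kg, with medians of 69.3, 119, 135 and 94.9 CPM. The means at 0 and 50 mg/kg include single livers at 242 and 420 CPM. It had a lowest, median and highest level of 65.8, 116 and 420 CPM over the 26 livers, a 6.38-fold range. Mvd, Msmo1, Sqle and Mvk had ranges of 6.78-fold, 6.36-fold, 5.8-fold and 5.29-fold, and the range of Fdps was 11.7-fold. Sc5d, Mylip and Nr1h2 varied least, with ranges of 1.77-fold, 1.74-fold and 1.51-fold. The median residual standard deviation on the log2 scale, after terms for dose and run, was 0.32 for the members and 0.31 for all genes tested.

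**Figure D2:**
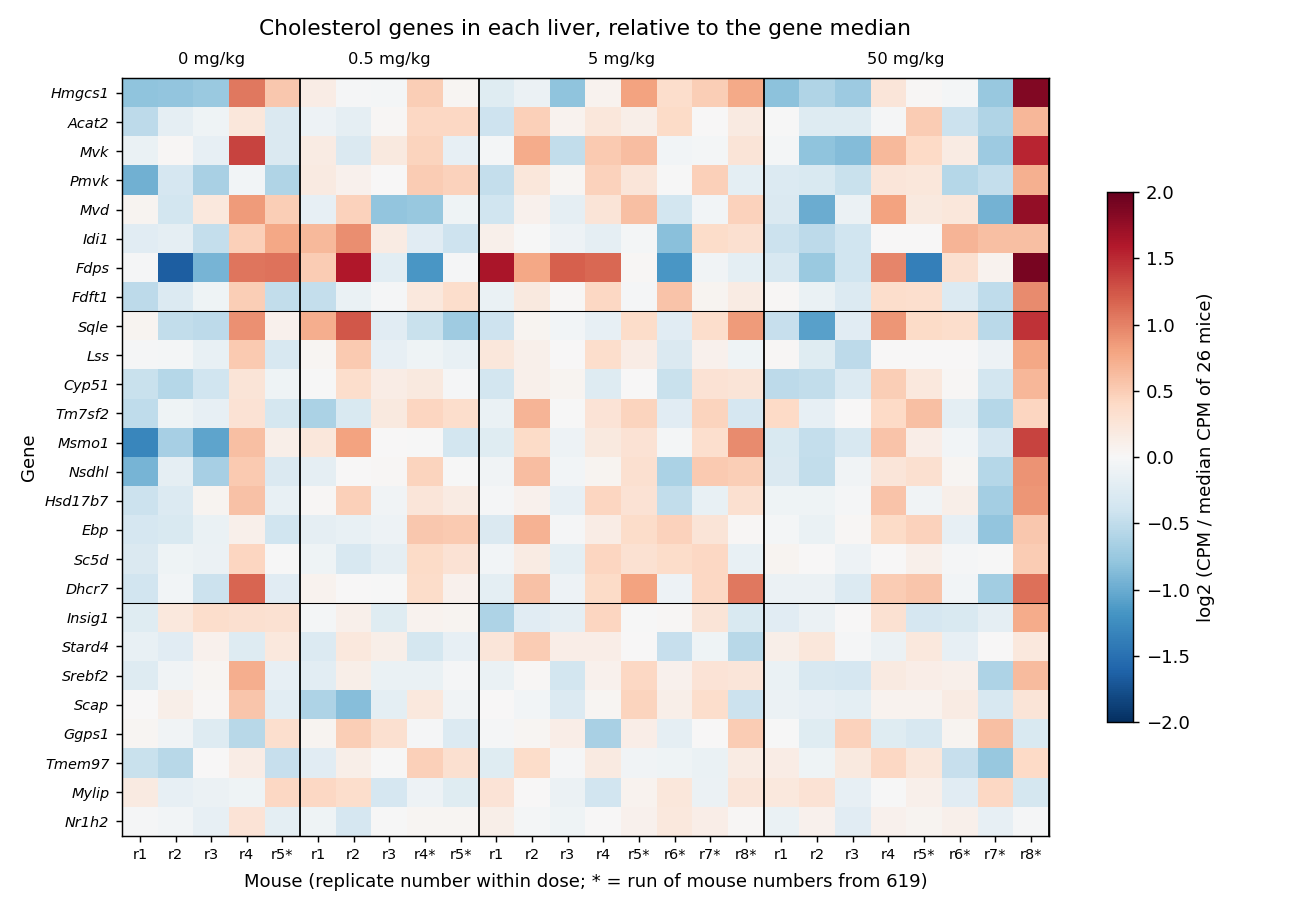
Level of each of the 26 genes in each liver as the log2 ratio to its median over the 26 livers, with genes down the page by role and livers across by dose (0 to 50 mg/kg); an asterisk marks a mouse of the 619 run and colours stop at 2 in either direction. Whole columns stand out, above all replicate 8 at 50 mg/kg (median ratio 0.70) and replicate 4 at 0 mg/kg (0.48).

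The largest values fell in the same few mice. Replicate 8 at 50 mg/kg was the highest of the 26 livers for 15 members and among the highest 3 for 19. Its Hmgcs1 level of 420 CPM was 5.48 times the median of the other mice at that dose (76.6 CPM), and the ratio was 4.67 for Fdps, 3.69 for Mvd, 3.19 for Sqle and 3.18 for Msmo1. In the same liver Ggps1 and Mylip stood at 0.817 and 0.731 times the median of the other mice. Replicate 4 at 0 mg/kg was among the highest 3 livers for 13 members, with 242 CPM of Hmgcs1, 3.55 times the median of the other controls (68.2 CPM), and ratios of 2.82 for Mvk, 2.76 for Dhcr7 and 2.75 for Msmo1. Replicate 7 at 50 mg/kg lay at the other end: it was among the lowest 3 livers for 11 members (median log2 ratio -0.50), as was replicate 1 at 0 mg/kg (-0.28). High and low mice thus occurred at the same doses.

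Sums over other transcripts differed between these livers as well. Replicate 8 at 50 mg/kg had a hepatocyte sum of 103000 CPM (all 26 livers 42600 to 123000 CPM), a stellate cell and fibroblast sum of 85.5 CPM (84.6 to 308 CPM), and a sum of 300 CPM over 9 clock genes known to be high together with Dbp (283 to 1020 CPM). Replicate 4 at 0 mg/kg had a stellate sum of 88.9 CPM and an acute-phase sum of 424 CPM, against 27 to 135 CPM in the other controls and up to 6350 CPM at 0.5 mg/kg. The part of these in the members' levels was not tested.

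Most members varied together from mouse to mouse. After terms for dose and run were removed from log2 CPM, 19 of the 26 members had a correlation over 0.5 with the mean of the other 25, against 10.2% of 14389 other genes with the mean of all 26. The median member had r = 0.67, and 147 of the 325 pairs of members (45.2%) exceeded 0.5. The share among pairs of other genes was not computed, so the pair count has no background beside it. These correlations are a description over 26 livers that share library depth and base composition effects.

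Some markers of cell types and of the clock varied with the member mean as well. Of 6 hepatocyte markers, 3 exceeded 0.5 (Apoa1 0.63, Ttr 0.57 and Serpina1a 0.56), and of 5 stellate cell and fibroblast markers, Lrat (-0.60) and Dcn (-0.59) were below -0.5. Of the 9 clock genes high with Dbp, Nr1d2 (-0.79), Per2 (-0.54) and Per3 (-0.53) were below -0.5, and of the 5 high with Arntl none passed 0.5 in either direction. All 5 Kupffer cell markers lay between -0.33 and -0.15, and all 5 acute-phase genes between 0.31 and 0.46. Of 14389 other genes, 10.2% exceeded 0.5 and 9.56% were below -0.5. Without replicate 8 at 50 mg/kg and replicate 4 at 0 mg/kg, Apoa1 (0.59) and Nr1d2 (-0.62) stayed past 0.5. Ttr (0.48), Serpina1a (0.47), Lrat (-0.47), Dcn (-0.49), Per2 (-0.32) and Per3 (-0.30) did not. The Kupffer cell marker Timd4 then stood at -0.51. The part of these transcripts in the co-variation was not tested.

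Hmgcs1, Dhcr7 and Srebf2 had the highest Pearson's r with the others (0.89, 0.88 and 0.88), with Spearman's rho of 0.74, 0.82 and 0.79. By rho, Nsdhl (0.79), Msmo1 (0.76) and Hsd17b7 (0.76) also stood above Hmgcs1. Without the 2 mice farthest from the median, replicate 8 at 50 mg/kg and replicate 4 at 0 mg/kg, r was 0.75, 0.80 and 0.78. Mvk (0.87), Hsd17b7 (0.86), Nsdhl (0.85), Msmo1 (0.82), Cyp51 (0.81), Mvd (0.81) and Pmvk (0.79) followed, so enzymes from before and after squalene were both near the top. Srebf2, which encodes the factor itself, was the control gene that varied most like the enzymes.

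Fdps (0.45), Scap (0.41), Idi1 (0.26), Nr1h2 (0.26) and Stard4 (0.08) followed the rest weakly. Ggps1 and Mylip went the other way, with r of -0.54 and -0.43, rho of -0.45 and -0.32, and r of -0.43 and -0.32 without the 2 farthest mice. Ggps1 uses farnesyl diphosphate for isoprenoids other than sterols, and Mylip acts on uptake rather than synthesis. Mylip is known as a target of the oxysterol receptors, not of SREBPs.

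**Figure D3:**
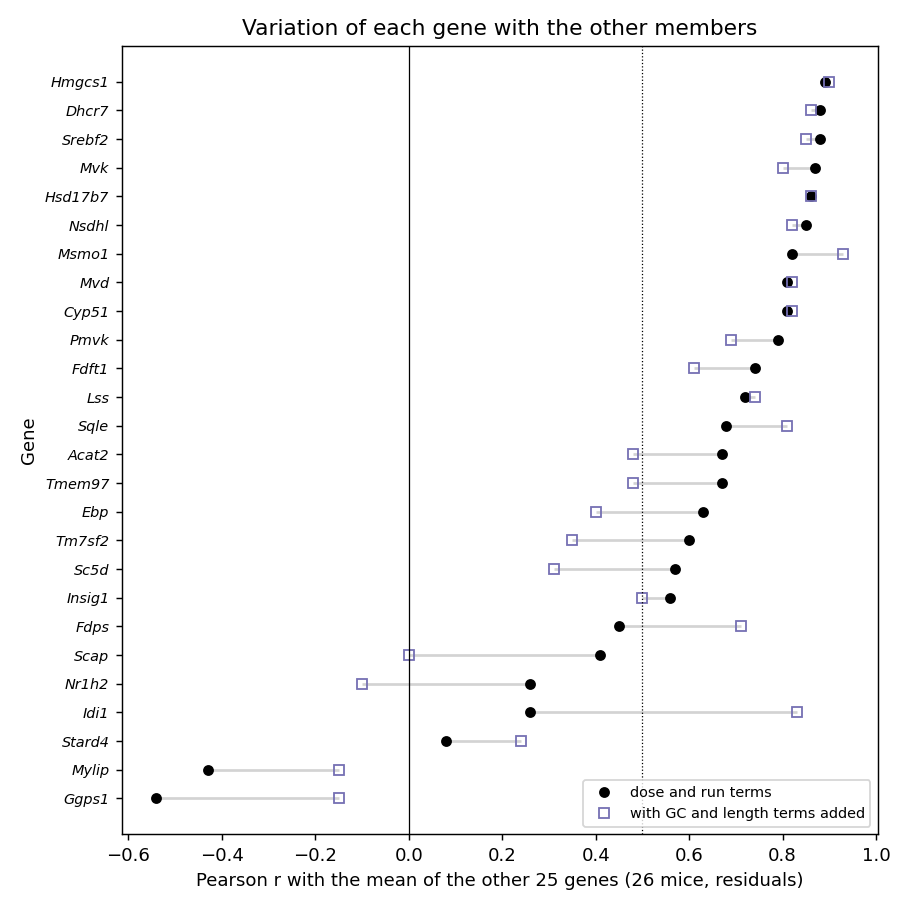
Pearson correlation of each member with the mean of the other 25 over 26 livers, after terms for dose and run (filled dots) and with the GC and length index of each library as further terms (open squares); the dotted line marks 0.5. Of the filled dots, 19 lie right of the line and 2, Ggps1 and Mylip, lie below 0.

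Base composition of the libraries moved with this pattern. The GC index of a library is the correlation over genes between its residual log2 CPM and transcript GC content. The mean of the members correlated with it (r = 0.57) and with the same index for transcript length (r = -0.48). Computed instead from log2 CPM centred by gene, with dose and run not removed, the GC index lay between -0.39 and 0.33. With both residual indices as further terms, 15 members exceeded 0.5 against 2.63% of other genes, and the median member had r = 0.70. In that fit Idi1 stood at 0.83, Fdps at 0.71 and Msmo1 at 0.93, while Ggps1 and Mylip, at -0.15 each, were closer to 0. Without replicate 8 at 50 mg/kg, replicate 4 at 0 mg/kg and replicate 8 at 5 mg/kg, 14 members exceeded 0.5 against 6.62% of other genes. The part of base composition in the co-variation was not tested further.

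Sequences upstream of the members' starts are shown because the genes varied together. RefSeq's promoter table (build GRCm38.p6) matched 22 members with 26 start sites (Fdft1, Sqle, Fdps and Stard4 are named only), and the 250 bases before each start were searched on both strands for 3 motifs. CCAAT, the box bound by NF-Y, a partner of SREBPs, lay upstream of 19 of the 22 members, in 73.1% of their windows, against 33.8% of 32851 windows of all genes. The sterol regulatory element was searched for only as an exact match to TCACNCCAC. Such a match was found upstream of Hmgcs1 alone, 3.85% of member windows against 1.05% of all windows. Forms of the element that differ from these letters were not searched for. The E-box CACGTG, which reads alike on both strands, lay upstream of Dhcr7, Hsd17b7, Insig1, Sc5d and Scap, in 19.2% of windows against 6.02%. No match of one motif shared a base with a match of another. Acat2, Nr1h2 and Scap had no CCAAT in these windows.

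The stretches below begin with the sterol regulatory element match and a CCAAT box of Hmgcs1, the member of highest Pearson's r over all livers. CCAAT boxes of Dhcr7, Srebf2, Msmo1 and Pmvk follow, then the E-box of Hsd17b7. CCAAT boxes of Ggps1 and Mylip, the 2 genes that went the other way, close the stretches shown. Each is written 5′ to 3′ on the gene's strand, with the motif in capitals, and CCAAT on the opposite strand reads ATTGG. A match is a description of these letters, not a site known to be bound.
Hmgcs1 sterol regulatory element, chr13:119690184-119690252, plus strand: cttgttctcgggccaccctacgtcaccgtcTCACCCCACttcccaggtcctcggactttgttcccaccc
Hmgcs1 CCAAT, chr13:119690276-119690340, plus strand: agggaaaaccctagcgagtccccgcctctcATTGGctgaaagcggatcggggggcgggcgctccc
Dhcr7 CCAAT, chr7:143830099-143830163, plus strand: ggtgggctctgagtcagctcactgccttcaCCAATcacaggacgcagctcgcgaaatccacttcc
Srebf2 CCAAT, chr15:82147104-82147168, plus strand: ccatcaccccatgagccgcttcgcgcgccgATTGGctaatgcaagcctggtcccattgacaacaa
Msmo1 CCAAT, chr8:64733640-64733704, minus strand: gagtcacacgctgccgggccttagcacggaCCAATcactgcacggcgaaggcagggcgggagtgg
Pmvk CCAAT, chr3:89454375-89454439, plus strand: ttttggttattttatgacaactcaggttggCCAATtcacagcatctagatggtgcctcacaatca
Hsd17b7 E-box, chr1:169969313-169969378, minus strand: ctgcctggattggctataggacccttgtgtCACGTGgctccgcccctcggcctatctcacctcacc
Ggps1 CCAAT, chr13:14063509-14063573, minus strand: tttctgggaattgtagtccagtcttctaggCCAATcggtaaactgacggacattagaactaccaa
Mylip CCAAT, chr13:45389645-45389709, plus strand: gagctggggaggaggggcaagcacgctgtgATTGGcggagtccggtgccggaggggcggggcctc
Ggps1 and Mylip, whose levels opposed the rest, held CCAAT in these windows as the members of high correlation shown here did.

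No member passed the test for a difference between doses. Each dose was set against 0 mg/kg with edgeR's quasi-likelihood test, with run as a term and p-values adjusted by Benjamini-Hochberg over the 14415 genes, and an adjusted p under 0.05 was called. At 0.5 mg/kg, 0 members and 0 of all genes (0%) were called against 0 mg/kg. At unadjusted p under 0.05 there were 3 members (11.5%), with Pmvk and Tmem97 higher and Scap lower, against 6.99% of all genes. The members' median was 0.11 (all genes 0.00), with 16 of 26 above 0 (all genes 50.8%). Of the 3 roles, the later enzymes had the highest median (0.19, 8 of 10 above 0), against 0.11 for the mevalonate genes and -0.04 for the control genes. Most members varied together and the doses share their controls. Such counts and medians, here and below, therefore do not rest on independent members.

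**Figure D4:**
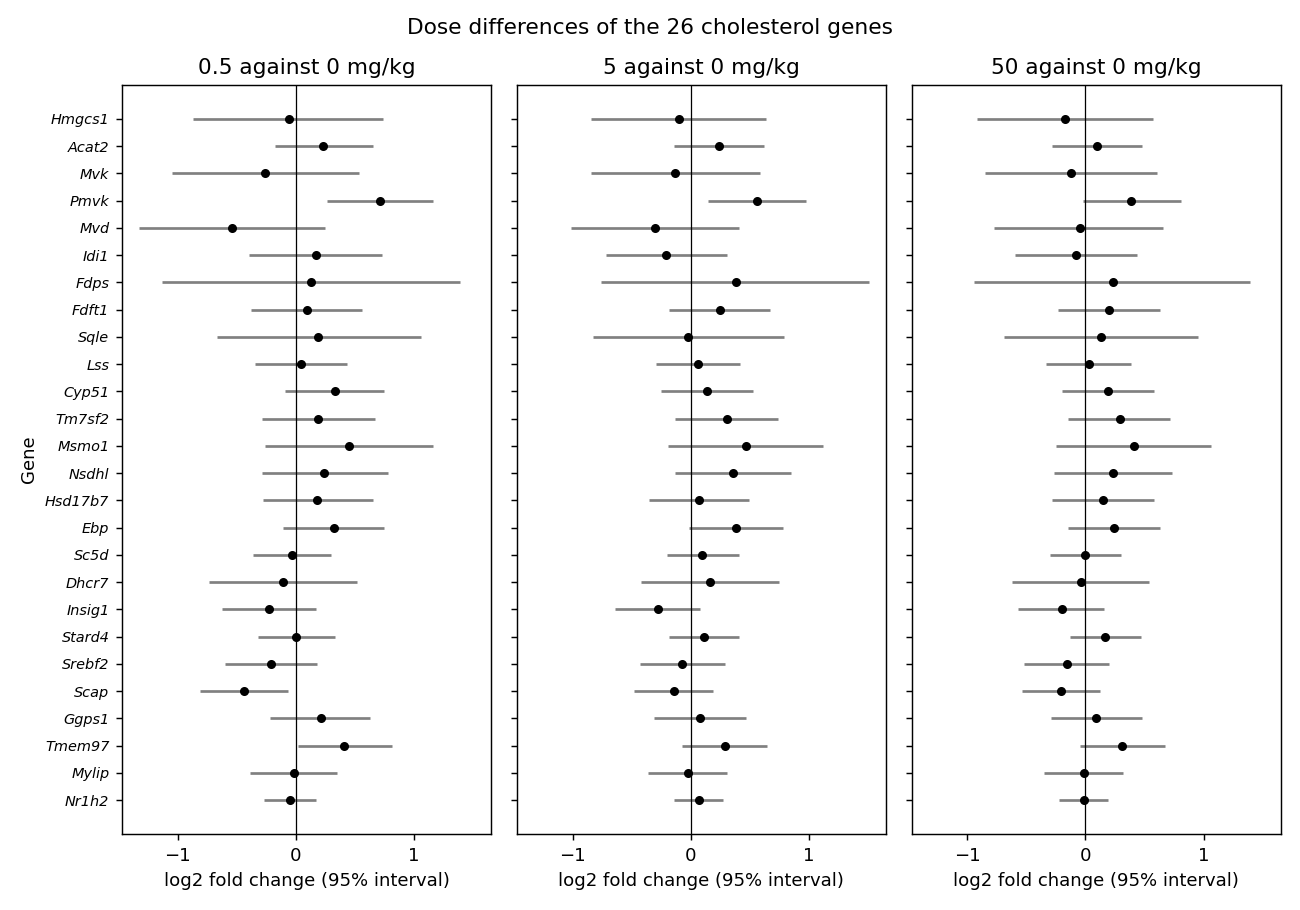
log2 fold change against 0 mg/kg of each of the 26 genes at 0.5, 5 and 50 mg/kg, with lines for the 95% interval of the edgeR fit; the vertical line marks 0. The intervals of Pmvk at 0.5 and 5 mg/kg (0.26 to 1.16 and 0.15 to 0.98) and of Tmem97 at 0.5 mg/kg (0.02 to 0.81) lie above 0, that of Scap at 0.5 mg/kg (-0.81 to -0.07) lies below, and all others include 0.

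Pmvk (ENSMUSG00000027952, chr3:89454541-89469013, mm10) had 35.3, 33.1, 31.1, 44.1 and 42.6 CPM in the 5 livers at 0.5 mg/kg, against 16, 24.5, 19.8, 30 and 20.4 CPM in the 5 at 0 mg/kg. Every treated liver lay above every control, as for 0.645% of all genes tested and no other member. The means were 37.3 ± 5.8 and 22.1 ± 5.36 CPM (SD, n = 5 each), 1.63-fold apart by the fit. The log2 fold change was 0.71 ± 0.22 (SE, as for all fold changes below; 95% interval 0.26 to 1.16, adjusted p = 0.492, edgeR), with 1.09 in the 619 run and 0.52 in the 601 run. Over the doses the means of Pmvk were 22.1, 37.3, 33.9 and 30.2 CPM from 0 to 50 mg/kg, highest at the lowest dose given. The contrasts of all 3 doses share the same 5 controls.

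**Figure D5:**
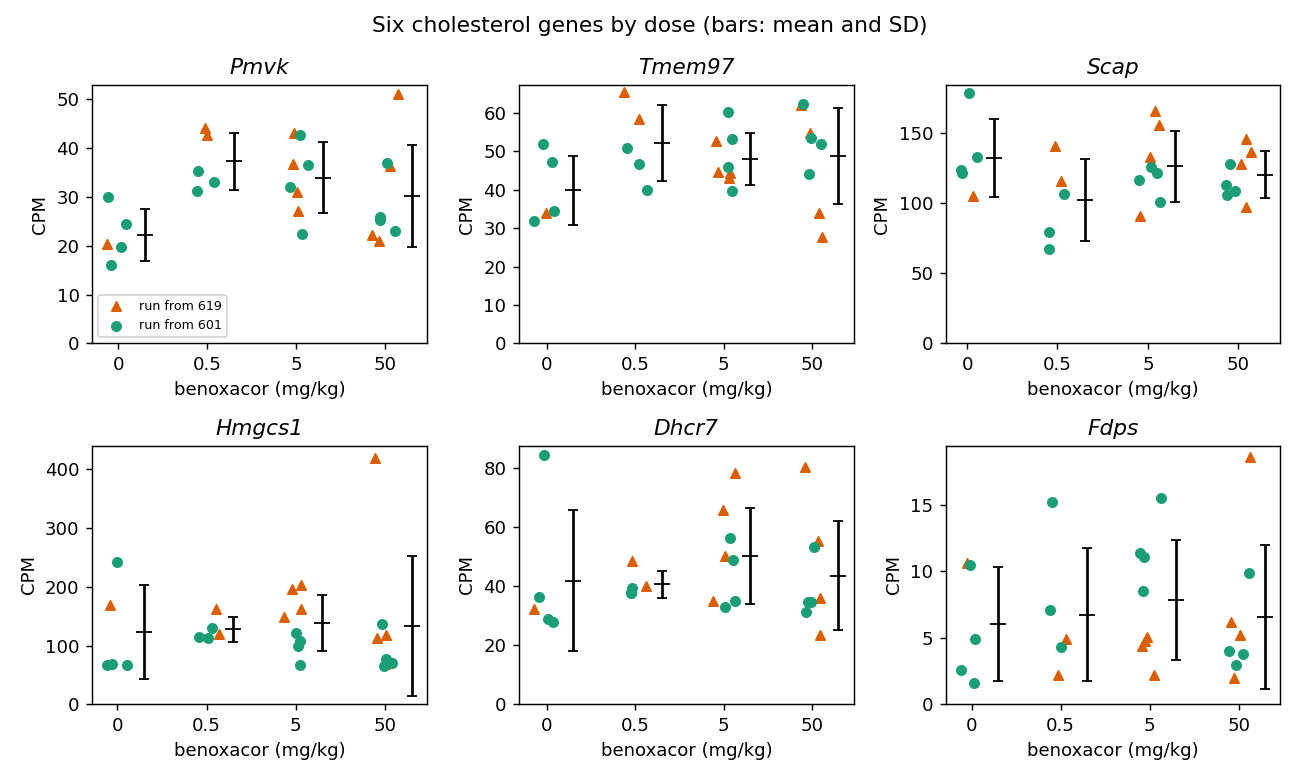
CPM of Pmvk, Tmem97, Scap, Hmgcs1, Dhcr7 and Fdps in each liver at 0, 0.5, 5 and 50 mg/kg, with triangles for the 619 run, circles for the 601 run, and bars for the mean and standard deviation. For Pmvk the 5 livers at 0.5 mg/kg (31.1 to 44.1 CPM) lie above the 5 controls (16 to 30 CPM); in the other panels every dose overlaps the controls.

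Scap had 79.7, 67.4, 107, 141 and 116 CPM at 0.5 mg/kg, against 122, 133, 124, 179 and 105 CPM at 0 mg/kg. The 2 lowest livers were replicates 1 and 2, those of high acute-phase transcripts. The log2 fold change was -0.44 ± 0.18 (95% interval -0.81 to -0.07, adjusted p = 0.621), 0.29 in the 619 run and -0.75 in the 601 run (adjusted p = 0.0836, edgeR), so the direction did not hold in both runs. Without replicates 1 and 2 at 0.5 mg/kg it was -0.21. The part of the acute-phase livers in it was not tested further.

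Tmem97 had 40, 50.8, 46.7, 65.4 and 58.3 CPM at 0.5 mg/kg, against 34.6, 32, 47.1, 51.9 and 33.9 CPM at 0 mg/kg, with overlap. Its log2 fold change was 0.41 ± 0.19 (95% interval 0.02 to 0.81, adjusted p = 0.681), with 0.87 in the 619 run and 0.12 in the 601 run. Cyp51 had 154, 197, 171, 176 and 152 CPM at 0.5 mg/kg, against 113, 104, 117, 184 and 146 CPM at 0 mg/kg, and 1 control exceeded all but 1 treated liver. Its log2 fold change was 0.33 ± 0.21 (adjusted p = 0.799).

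At 5 mg/kg, 0 members and 0 of all genes tested (0%) were called against 0 mg/kg. At unadjusted p under 0.05 there was 1 member, Pmvk, against 6.18% of all genes. The members' median was 0.09 (all genes 0.01), and 17 of 26 were above 0 (all genes 51.9%), among them 9 of the 10 later enzymes, whose median was 0.15.

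Pmvk had 22.4, 34.2 and 43 CPM as lowest, median and highest at 5 mg/kg, against 16 to 30 CPM at 0 mg/kg. Its log2 fold change was 0.56 ± 0.20 (95% interval 0.15 to 0.98, adjusted p = 0.78, edgeR), with 0.75 in the 619 run and 0.55 in the 601 run, and 0.60 without replicate 8 at 5 mg/kg, the liver with steroid-producing cell transcripts. The ranges overlapped, with 6 of the 8 treated mice above the highest control. Ebp had 83.5, 117 and 166 CPM at 5 mg/kg, against 81.1, 82.3, 92.6, 109 and 77.8 CPM at 0 mg/kg. Its log2 fold change was 0.38 ± 0.19 (adjusted p = 0.78), and 0.25 without replicate 2 at 5 mg/kg, the highest liver. Tmem97 was at 0.29 ± 0.18 (adjusted p = 0.78) and Insig1 at -0.28 ± 0.18 (adjusted p = 0.781), with nearly the same value in both runs for Insig1 (-0.30 in the 619 run and -0.29 in the 601 run).

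At 50 mg/kg, 0 of 26 members and 0.00694% of all genes tested (1 gene) were called against 0 mg/kg. At an unadjusted p under 0.05 there were 0 members and 5.11% of all genes. The members' median log2 fold change was 0.10 and that of all genes 0.01, and 15 of 26 members were above 0 (all genes 51.1%). By role, 4 of 8 mevalonate genes, 8 of 10 genes of the later steps and 3 of 8 control genes were above 0, with medians of 0.02, 0.17 and -0.01.

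Pmvk was again first by p at 50 mg/kg. Its lowest, median and highest levels were 20.9, 25.5 and 51.1 CPM in the 8 livers at 50 mg/kg, against 16 to 30 CPM in the 5 livers at 0 mg/kg. The groups overlapped, and the highest treated value was that of replicate 8. The log2 fold change was 0.39 ± 0.20 (adjusted p = 0.975 by edgeR), with 0.68 in the 619 run and 0.29 in the 601 run. Without replicate 4 at 0 mg/kg it was 0.53, and without replicate 8 at 50 mg/kg it was 0.28.

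Tmem97 had 27.8, 52.8 and 62.4 CPM as lowest, median and highest at 50 mg/kg, against 34.6, 32, 47.1, 51.9 and 33.9 CPM at 0 mg/kg. Its log2 fold change was 0.31 ± 0.18 (adjusted p = 0.984, edgeR). Tm7sf2 had 48.5, 83.8 and 109 CPM at 50 mg/kg, against 50.8, 68.1, 64.2, 88.1 and 56.3 CPM at 0 mg/kg. Its log2 fold change was 0.29 ± 0.21 (adjusted p = 0.987), and 0.19 without replicate 5 at 0 mg/kg. Both genes overlapped between the groups. Scap was lower on average (-0.21 ± 0.16, adjusted p = 0.987), but this turned with the mice used: it was 0.28 in the 619 run, -0.30 in the 601 run, and between -0.37 and -0.07 when a control (replicate 5 or replicate 4) was left out.

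The size of these differences hung on single mice. Without replicate 4 at 0 mg/kg, the control high for 13 members, the members' median log2 fold changes at 0.5, 5 and 50 mg/kg were 0.31, 0.29 and 0.33, with 0.01 for all genes at each dose. In these fits 5, 7 and 4 members had an unadjusted p under 0.05, against 6.45%, 8.87% and 5.15% of all genes. No member was called in any of the 3. Other mice moved the medians down. At 0.5 mg/kg the median was -0.04 without replicate 2 at that dose and 0.03 without control replicate 1, and at 50 mg/kg it was 0.00 without replicate 8 at that dose and 0.02 without control replicate 2. At 5 mg/kg it lay between 0.07 and 0.12 when any mouse but control replicate 4 was left out. Without control replicate 4, replicate 8 at 50 mg/kg and replicate 8 at 5 mg/kg, which were left out after their levels were seen, the counts in the same order of doses were 5, 10 and 2 members (7.46%, 9.97% and 4.72% of all genes) and the medians 0.31, 0.30 and 0.08. The smallest adjusted p of a member was then 0.347, that of Pmvk at 5 mg/kg. DESeq2 and limma-voom on all mice also called 0 members at each dose. At an unadjusted p under 0.05, DESeq2 had 3, 1 and 0 members at 0.5, 5 and 50 mg/kg (7.67%, 6.81% and 5.53% of all genes). By limma-voom there were 3, 2 and 0 (7.08%, 6.29% and 5.3% of all genes).

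Between the higher doses, 0 members and 0 of all genes (0%) were called at 50 mg/kg against 5 mg/kg, and 0 members had an unadjusted p under 0.05 (4.85% of all genes). Above 0 were 11 of 26 members (all genes 49.3%), and the members' median was -0.04 (-0.14 without replicate 8 at 50 mg/kg, 0.01 without replicate 2 at 50 mg/kg). The 4 members of smallest p were all lower at 50 mg/kg. Pmvk was at -0.17 ± 0.17, Ebp at -0.14 ± 0.16, Acat2 at -0.14 ± 0.16 and Nr1h2 at -0.08 ± 0.08 (adjusted p = 0.962 each, edgeR). Nr1h2 had 33, 39 and 41.3 CPM as lowest, median and highest at 50 mg/kg, against 36.1, 39.8 and 44.4 CPM at 5 mg/kg. Its 95% interval, -0.25 to 0.09, was the narrowest of the 4. Without replicate 8 at 50 mg/kg, Pmvk stood at -0.31 and Acat2 at -0.25, and without replicate 2 at 5 mg/kg Ebp stood at -0.04 and Acat2 at -0.07. Without replicate 7 at 50 mg/kg Nr1h2 stood at -0.05.

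A steady trend over the ranks of dose was not detectable either. It was called for 0 members and for 0.0139% of all genes (2 genes). At unadjusted p under 0.05 there were 0 members and 4.26% of all genes (1 member and 4.1% without control replicate 5). The slopes nearest to the threshold were those of Tm7sf2 (0.09 ± 0.07 log2 units per dose step), Stard4 (0.06 ± 0.04), Tmem97 (0.07 ± 0.06) and Fdft1 (0.07 ± 0.06), each with an adjusted p of 1 by edgeR. Slopes were above 0 for 19 of 26 members (all genes 50.6%), among them all 10 later enzymes, with a median of 0.03. These members varied together, so their slopes are not separate observations. For Tmem97 the slope was -0.04 in the 619 run and 0.12 in the 601 run, and that of Fdft1 lay between 0.03 and 0.12 when control replicate 5 or 4 was left out. Stard4 stood at 0.10 without control replicate 5 and Tmem97 at 0.04 without control replicate 2.

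The runs of mouse numbers were compared with dose as a term. In the 619 run against the 601 run, 0 members and 0.0902% of all genes (13 genes) were called. At unadjusted p under 0.05 there was 1 member, Hmgcs1, against 7.98% of all genes. The members' median was 0.16 and that of all genes 0.02, and 21 of 26 members lay above 0 (all genes 54%). Without replicate 8 at 50 mg/kg the median was 0.06. The count of 1 was 4 without control replicate 5 (11.8% of all genes). It was 3 without control replicate 4 (8.96%), replicate 8 at 5 mg/kg (8.03%) or replicate 7 at 50 mg/kg (11.1%). It was 2 without replicate 5 at 0.5 mg/kg (7.54%), replicate 4 at 5 mg/kg (7.52%) or replicate 6 at 50 mg/kg (8.69%). DESeq2 and limma-voom called 0 members as well, with 2 and 1 at an unadjusted p under 0.05 (8.61% and 8.32% of all genes).

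Hmgcs1 (ENSMUSG00000093930, chr13:119690379-119708260, mm10) had 68.5, 163 and 420 CPM as lowest, median and highest in the 11 livers of the 619 run, against 65.8, 98.6 and 242 CPM in the 15 of the 601 run. The means were 171 ± 91.3 and 103 ± 46.3 CPM (SD). At 5 mg/kg the 619 run had 148 to 203 CPM, against 66.5 to 122 CPM in the 601 run, and at 50 mg/kg it had 68.5 to 420 CPM, against 65.8 to 137 CPM in the 601 run. The log2 fold change was 0.76 ± 0.25 (1.7-fold, 95% interval 0.24 to 1.29, adjusted p = 0.326, edgeR). It was 0.49 without replicate 8 at 50 mg/kg, and 0.95 over the mice at 5 and 50 mg/kg alone.

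Sc5d had 344, 469 and 541 CPM in the 619 run, against 306, 362 and 518 CPM in the 601 run (0.21 ± 0.10, adjusted p = 0.642, edgeR). Scap was at 0.20 ± 0.11 (adjusted p = 0.697) and Stard4 at -0.17 ± 0.10 (adjusted p = 0.733). Transcripts of the circadian clock moved with the run: the 5 genes known to be high together with Arntl summed to a median of 163 CPM in the 619 run and 117 CPM in the 601 run, and the 9 high together with Dbp to 489 CPM in the 619 run and 698 CPM in the 601 run. Of the first, Npas2 (3.46, adjusted p = 0.00987) and Arntl (1.30) were called. The part of these clock transcripts in the difference of Hmgcs1 was not tested.

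The difference between 50 and 5 mg/kg was compared between the runs in the 16 mice at these doses. Of the 14222 genes tested, 0 (0%) were called, among them 0 members. At unadjusted p under 0.05 there were 4 members (15.4%), against 5.04% of all genes, all with a more positive difference between 50 and 5 mg/kg in the 619 run (2.2% of all genes in that direction). They were the isoprenoid enzymes Idi1 and Fdps, the lanosterol synthase Lss and Stard4. The count was 1 without replicate 3 at 50 mg/kg (3.82% of all genes) or replicate 6 at 5 mg/kg (4.49%). It was 2 without replicate 8 at 5 mg/kg, the liver of steroid-producing cell transcripts (3.73%), replicate 1 at 5 mg/kg (4.14%), replicate 2 at 50 mg/kg (4.66%) or replicate 8 at 50 mg/kg (7.88%). The members' median was 0.10, and it was -0.15 without replicate 8 at 50 mg/kg and 0.30 without replicate 7 at that dose. Above 0 were 16 of 26 members (all genes 48%): all 8 mevalonate genes (median 0.28), 7 of the 10 later enzymes and 1 of the 8 control genes.

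For Fdps the 4 livers at 50 mg/kg in the 619 run had 1.94, 6.22, 5.21 and 18.6 CPM, against 5.05, 2.23, 4.74 and 4.36 CPM at 5 mg/kg. In the 601 run they had 3.98, 2.97, 3.79 and 9.86 CPM at 50 mg/kg, against 15.5, 8.52, 11.4 and 11.1 CPM at 5 mg/kg. In the 619 run 3 of the 4 livers at 50 mg/kg lay above every liver at 5 mg/kg, and in the 601 run 3 of the 4 lay below every liver at 5 mg/kg. The interaction was 2.12 ± 0.72 log2 units (95% interval 0.60 to 3.65, adjusted p = 0.972, edgeR), and 1.27 without replicate 8 at 50 mg/kg. Summed with its copies Gm3571 and Gm5873, Fdps had 14.1, 11.5, 9.12 and 34.8 CPM at 50 mg/kg in the 619 run, against 18.4, 10, 18.1 and 20.3 CPM at 5 mg/kg. In the 601 run the sums were 11.1, 9.65, 9.77 and 19.9 CPM at 50 mg/kg, against 24.8, 25.2, 22.5 and 22.1 CPM at 5 mg/kg. The gap between the runs at 5 mg/kg was narrower in the sums. They do not settle how reads in the bases shared with Gm43738 were counted.

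Idi1 had 80.7, 129, 122 and 122 CPM at 50 mg/kg in the 619 run, against 77.7, 44.9, 104 and 99.6 CPM at 5 mg/kg. In the 601 run it had 59.5, 56, 61.1 and 80.7 CPM at 50 mg/kg, against 86.5, 79.7, 75.1 and 71 CPM at 5 mg/kg. The interaction was 0.72 ± 0.31 (adjusted p = 0.972). Stard4 had 171, 132, 148 and 172 CPM at 50 mg/kg in the 619 run, against 148, 108, 140 and 101 CPM at 5 mg/kg. In the 601 run it had 161, 173, 145 and 136 CPM at 50 mg/kg, against 176, 210, 162 and 162 CPM at 5 mg/kg. Its interaction was 0.50 ± 0.22, and that of Lss 0.55 ± 0.26 (0.31 without replicate 8 at 50 mg/kg), with an adjusted p of 0.972 for both by edgeR. In the same fit the 5 clock genes high with Arntl all lay below 0 and the 9 high with Dbp all at or above 0. All 5 stellate cell and fibroblast markers lay below 0 (median -1.45, Col1a1 -2.59), as did all 5 endothelial markers (median -0.28), all 5 acute-phase genes (median -1.51) and 4 of 6 fasted-state genes (median -0.89, Igfbp1 -3.80). Star stood at -6.07, and Cyp21a1 at -2.80. Replicate 8 at 5 mg/kg, the liver with steroid-producing cell transcripts and the highest stellate sum of the 26 livers (308 CPM), belongs to the 619 run. None of these was called, and their part in the members' differences was not tested.

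No gene of the lists around the pathway was called. The further lists held 13 genes of SREBP processing, 12 of isoprenoid branches, 7 of acetyl-CoA supply and ketone synthesis, 8 of oxysterol receptors and sterol efflux, 12 of uptake and transport and 6 of esterification, and 0 of them were called in any of the 7 comparisons. At 50 mg/kg against 0 mg/kg, 8, 9, 5, 5, 5 and 4 of these, in the same order, lay above 0. Soat2, the sterol acyltransferase of the liver, was at -0.32 (adjusted p = 0.944, edgeR) and Ces1d, a carboxylesterase, at 0.49. Insig2, a second retention protein of SREBPs, was at -0.42 at 50 mg/kg against 0 mg/kg (adjusted p = 0.979). In the 619 run against the 601 run it was at 0.76 (adjusted p = 0.0506), and the lipoprotein receptor Scarb1 was at 0.48 (adjusted p = 0.143).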

How the data were processed

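Liver RNA was measured by RNA-seq in 26 mice. The authors deposited raw read counts per gene; per the submitters' processing notes they used bcl2fastq, featureCounts and build mm10, and the aligner and strand setting are not given in the sources used here. The combined table and the 26 single-sample files held equal values. Within a dose, each of 76 pairs of libraries differed by more than sampling noise (chi-square per degree of freedom 12 to 124). Nothing in the labels says how samples relate beyond 1 mouse each, so p-values measure the spread between these samples.

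Counts were analysed in R 4.3.3 with edgeR 4.0.16 (TMM scaling, filterByExpr by dose, robust glmQLFit, glmQLFTest), with dose and run of mouse numbers as terms, over 14415 genes holding 99.7% of reads; intervals are at 95%. Levels are TMM-scaled CPM, divided by merged exon length (GENCODE M21) where given per kb. Co-variation used residuals of log2 CPM (prior count 2). GC and length index values cover 99.9% of tested genes. Alternatives were DESeq2 1.42.0, limma 3.58.1, other scaling and filters, terms for clock or base composition, each run alone, and mice left out. Scripts were tested on simulated data.

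The members, lists and tests were chosen with earlier results of these data known. Levels are given for all members, fold changes with adjusted p for the 4 members of smallest p in each comparison, values per mouse for the first 2, and the first 2 by p of each further list may be named. Precision is limited by 5 mice in the smaller groups.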

Additional observations from a re-analysis of the deposited data

Results flagged for a closer look

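A member was marked where, within 1 dose, the highest or lowest mouse lay farther from its neighbour than Dixon's 95% criterion allows. Of 104 groups of mice (26 members at 4 doses), 15 were marked. The criterion marks about 1 in 20 groups of independent, normally spread values. The members varied together over the same mice, and a normal spread of CPM was not tested. The count is therefore not read against that rate. Replicate 8 at 50 mg/kg accounted for 6: Hmgcs1 at 420 CPM (next mouse 137 CPM), Msmo1 at 202 CPM (117), Mvk at 26.2 CPM (14.3), Mvd at 31.2 CPM (16.1), Lss at 74.3 CPM (44) and Sc5d at 541 CPM (411). Replicate 4 at 0 mg/kg accounted for 4: Mvk at 23.1 CPM (9.27), Lss at 62.6 CPM (42.6), Dhcr7 at 84.2 CPM (36.3) and Srebf2 at 77.8 CPM (48.2).

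At 0.5 mg/kg, Nsdhl at 38.3 CPM (28.7) and Dhcr7 at 48.4 CPM (40) were high in replicate 4, and Lss at 62.4 CPM (44.4) was high in replicate 2. Msmo1 at 151 CPM (103) was high in replicate 8 at 5 mg/kg, the liver with 3870 CPM of steroid-producing cell markers. Insig1 was the only low one, at 189 CPM in replicate 1 at 0 mg/kg (next mouse 259 CPM). These values were kept in every count given above unless stated.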

How the results depend on the processing

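No paired analysis was possible because each sample is a different mouse at a single dose, and the labels pair no mice between doses. The count of called members stayed at 0 in all 197 alternative fits of the 7 comparisons, by edgeR, DESeq2 (not run for the interaction) and limma-voom. Of 788 alternative values of named members, 785 kept their direction and their side of the threshold, and 3 reversed, each in the 619 run alone, which holds 1 control: Scap at 0.5 mg/kg against 0 mg/kg (0.29), Scap at 50 mg/kg against 0 mg/kg (0.28) and the trend of Tmem97 (-0.04); the cause was not tested. GC and length indices of each library, here from log2 CPM centred by gene, were added as terms after the data were seen. At 0.5, 5 and 50 mg/kg against 0 mg/kg, 5, 2 and 5 members then had an unadjusted p under 0.05. The shares of all genes were 12.3%, 9.61% and 11.4%, and the smallest adjusted p of a member was 0.242 by edgeR. Leaving out single mice moved the run difference of Hmgcs1 between 0.49 and 0.86 (lowest adjusted p 0.0697). With 5 controls, the width of the interval of log2 fold change differed between members. At 50 mg/kg against 0 mg/kg the narrowest was that of Nr1h2 (-0.22 to 0.19) and the widest that of Fdps (-0.94 to 1.39). That of Hmgcs1 was -0.92 to 0.57. Differences of the size of a member's interval were not detectable for it.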

Other observations

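Of the 58 genes of the further sterol lists, 11 (19%) had r over 0.5 with the member mean over 26 livers after terms for dose and run, and 3 (5.17%) had r below -0.5, against 10.2% and 9.56% of 14389 other genes. Insig2 (r = 0.57), the cargo receptor Tmed10 (0.63) and the nuclear receptor Rxra (0.66) were among the 11. Rnf139, a ubiquitin ligase of the endoplasmic reticulum (r = -0.75), and Pdss1, an enzyme of ubiquinone synthesis (-0.58), were among the 3. Srebf1 (-0.01), the uptake receptor Scarb1 (0.16) and the fasting-responsive gene Pck1 (0.08) showed little relation. The oxysterol receptor Nr1h3 stood at 0.51 and its target Abca1, a sterol efflux pump, at -0.38. These genes were picked for mention after their values were seen.

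In replicate 8 at 5 mg/kg, the liver with transcripts of steroid-producing cells, Star stood at 911 CPM, Hsd3b1 at 1310 CPM and Cyp11b1 at 465 CPM. Gramd1b, a sterol transfer protein (-2.19), and Soat1, an acyltransferase (-1.60), were the genes of the uptake and esterification lists with the smallest p at 50 mg/kg against 5 mg/kg by edgeR (adjusted p = 0.962 each), and this liver is among the 5 mg/kg mice. Its Hmgcs1, Msmo1 and Dhcr7 levels were 196, 151 and 78.3 CPM.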
